A study of Caenorhabditis elegans with 2 samples.

Results

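The 5 genes described here encode homeodomain transcription factors of the Otx class (ceh-36, ceh-37 and ttx-1), the Pitx class (unc-30) and the Goosecoid class (ceh-45) in Caenorhabditis elegans. They were listed by name, from among 19985 annotated protein-coding genes, because CEH-36, the factor whose binding was mapped, is of the Otx class, and the Pitx and Goosecoid classes are related to it. The data are chromatin immunoprecipitation sequencing (ChIP-seq) peak lists from whole early embryos of pooled sexes, taken 2 hours after synchronization by egg bleaching. All embryos came from strain OP620, which carries the unc-119(tm4063) mutation on chromosome III and the integrated transgene wgIs620, a source of CEH-36 joined at its C-terminus to GFP and FLAG tags. Chromatin was precipitated with an antibody against GFP, per the labels, although their antibody field reads ceh-36. The group held 2 biological replicates, and no second condition, untagged strain or other factor was analysed here. Because ceh-36 is present both at its own locus and on the transgene, whose length and copy number the labels do not state, reads from these copies cannot be told apart.

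Homeodomain proteins of these classes carry a lysine at position 50 of the homeodomain, which favours the core sequence TAATCC over the TAATTA core of most other homeodomains. In C. elegans they are known mostly as regulators of neuron identity. CEH-36 acts in the AWC olfactory and ASE taste neurons, CEH-37 in the AWB olfactory neuron, TTX-1 in the AFD thermosensory neuron and UNC-30 in the GABAergic motor neurons. CEH-36 and UNC-30 are also known to act together in progenitor cells of the embryo, and CEH-37 is known to bind telomere repeats.

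For each gene all entries were taken whose summit, the position of highest signal, lay from 10 kb upstream of the gene to 5 kb past its end. The lists were the authors' optimal list, thresholded by the irreproducible discovery rate (IDR) procedure (1662 entries on ce11), a list for the pooled replicates and a list for each single replicate, with 30000 entries in each of these 3. Signal is the value the authors' peak caller gave each entry, and entries were ranked by it from 1, the strongest, within each list. Signals and ranks describe entries within a list only. Read depth is unknown from these files. The optimal list equals the top 1662 of the pooled ranking, so every rank given below for an optimal entry holds in both lists.

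The sequences at the summits of ceh-36, ttx-1 and unc-30 are shown first because these entries differ in whether the core lies within 100 bp of the summit. They are read 5′ to 3′ on the strand of the gene from the WBcel235 (ce11) reference genome, with TAATCC or its reverse complement GGATTA in capitals. The first 5 runs cover 50 bp on each side of an optimal summit. The others are TAATCC sites with 12 bp on each side.
ceh-36 exon summit, chrX:14185430-14185530, minus strand: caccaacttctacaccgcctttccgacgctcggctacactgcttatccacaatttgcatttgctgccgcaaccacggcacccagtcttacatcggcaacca
ceh-36 intron summit, chrX:14185685-14185785, minus strand: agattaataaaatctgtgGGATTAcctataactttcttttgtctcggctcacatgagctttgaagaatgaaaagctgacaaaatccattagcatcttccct
ttx-1 intron summit, chrV:20061632-20061732, minus strand: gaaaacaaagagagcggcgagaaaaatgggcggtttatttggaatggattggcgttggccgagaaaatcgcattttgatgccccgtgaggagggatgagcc
ttx-1 nearer upstream summit, chrV:20068806-20068906, minus strand: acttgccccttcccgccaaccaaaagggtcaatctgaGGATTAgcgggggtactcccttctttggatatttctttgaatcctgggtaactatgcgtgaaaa
ttx-1 farther upstream summit, chrV:20073405-20073505, minus strand: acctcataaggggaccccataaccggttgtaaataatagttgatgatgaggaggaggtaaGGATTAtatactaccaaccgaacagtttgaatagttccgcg
ttx-1 farther upstream summit, the other site, chrV:20073384-20073413, minus strand: agttccgcgcagGGATTAtttaaaatagga
ttx-1 promoter entry below the threshold, chrV:20065162-20065191, minus strand: agagtcaataaaGGATTAccacttgctagg
ceh-36 downstream entry of both replicates, chrX:14183080-14183109, minus strand: caaaaggtggcgTAATCCccttgagagaca
unc-30 site nearer to the start, chrIV:13119126-13119155, plus strand: tttgccttcaatTAATCCgatcactgactt
unc-30 site farther from the start, chrIV:13119159-13119188, plus strand: gtaagacggtaaTAATCCttggggattgag

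Of the 5 genes, 4 had at least 1 optimal summit in the window, namely ceh-36, ttx-1, unc-30 and ceh-45, while ceh-37 had 0. Over all protein-coding genes 21.6% had one, and among the 4744 genes with windows as long as those of the members 27.3% did. The same 4 genes had an optimal summit with TAATCC within 100 bp, against 9.49% of all protein-coding genes and 12.2% of those with windows of similar length. At the gene start, taken as 1500 bp upstream to 500 bp downstream, only unc-30 and ceh-45 had an optimal summit, against 4.18% of all genes. Only the outermost annotated start of each gene was used. Starts of shorter transcripts, such as that near an intron summit of ttx-1, were not counted. The members were chosen with earlier results of these data known, so these counts are a description and no test was made of them.

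In all, 8 optimal summits lay in the 5 windows, 3 at ttx-1, 2 each at ceh-36 and ceh-45 and 1 at unc-30. They ranked from 161 to 1260 of 1662. Of the 8, 6 had TAATCC within 100 bp, compared with 41.6% of all optimal summits, 19.3% of pooled summits and 6.69% of non-overlapping 201 bp tiles of the nuclear genome. The longer form CTAATCC was found at 2 of the 8, against 24.97% of all optimal summits. None of the 8 had TAATTA, which was present at 5.54% of all optimal summits and in 9.32% of genome tiles. The 6 summits with the core held 10 copies of it, whose centres lay a median of 28.5 bp from the summit, 7 of them within 50 bp. Only copies within 100 bp were counted, which caps these distances, and no value over all optimal summits is given beside them. A match to these letters is not by itself a binding site.

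**Figure D1:**
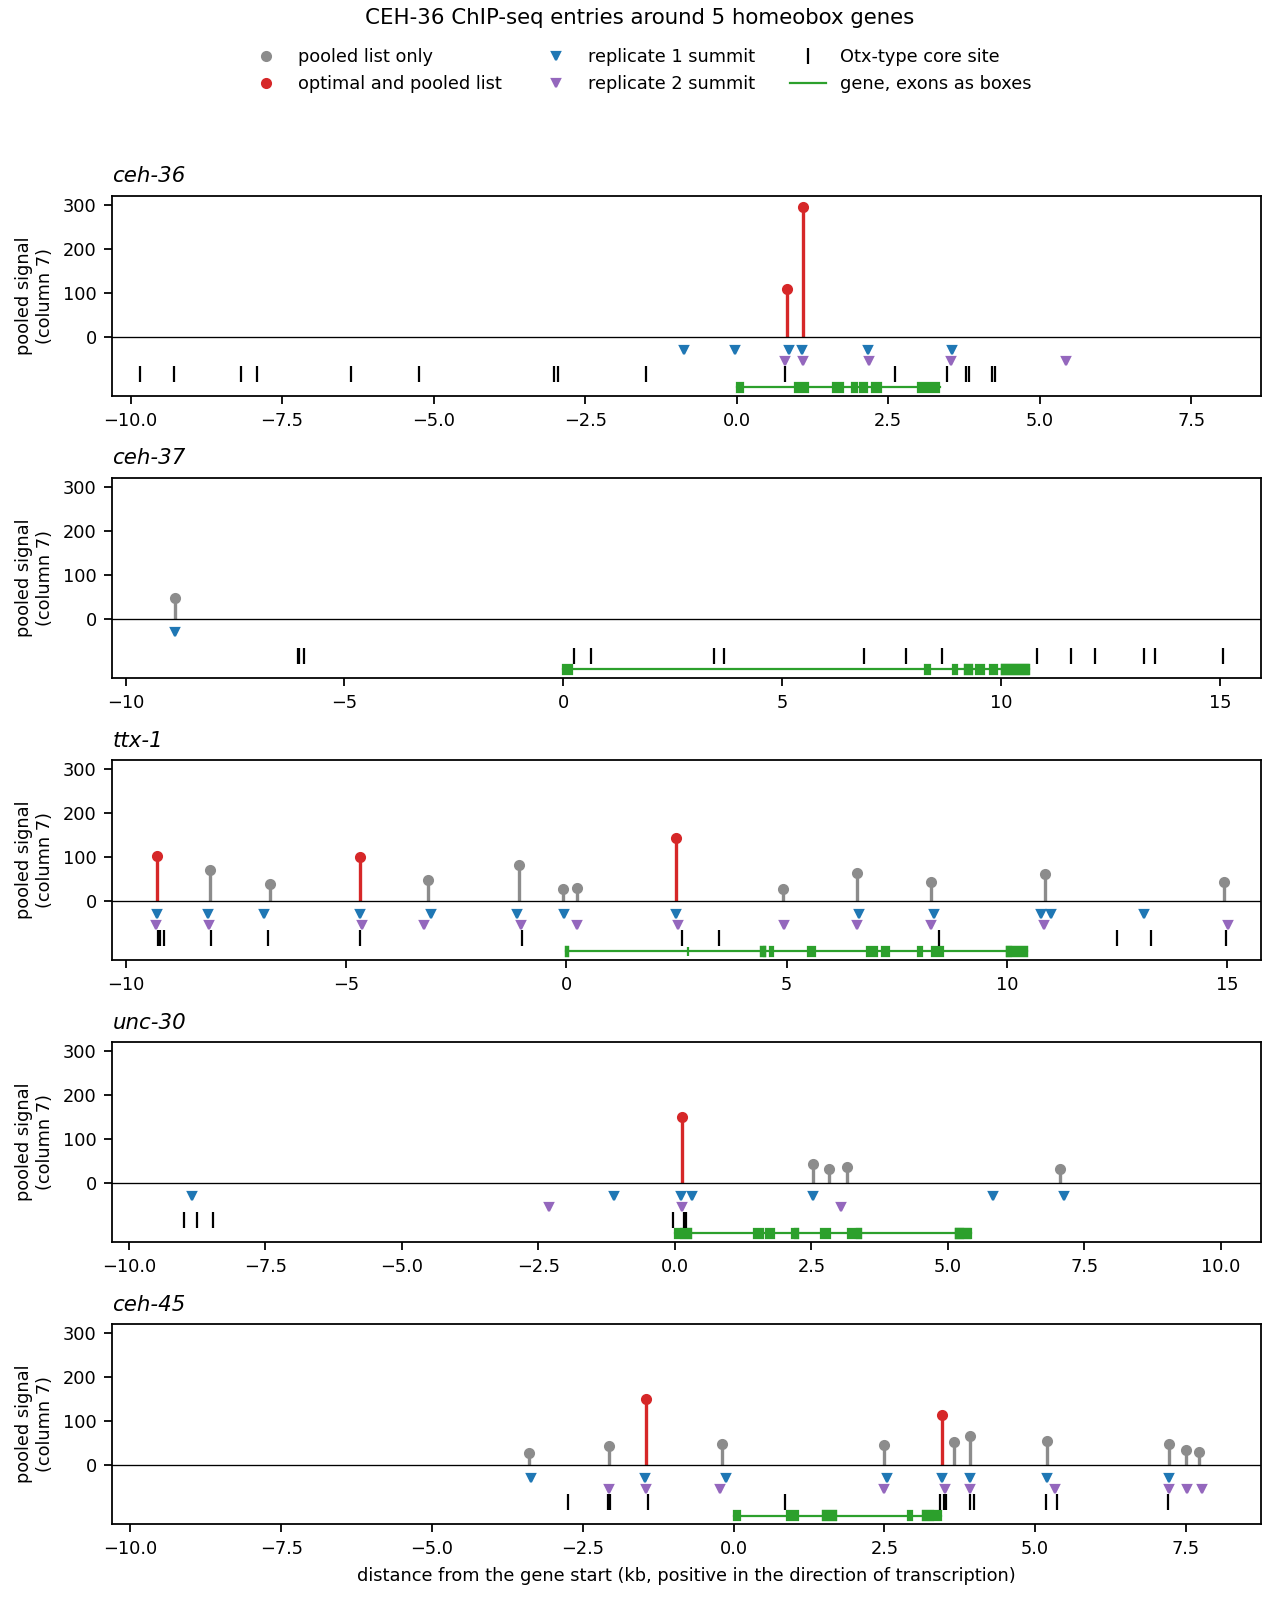
Entries around the 5 genes, with distance from the gene start in kb on the x axis and pooled signal on the y axis, where stems are pooled entries, red where they are also optimal. Below the line are the summits of each replicate list, the Otx-type core sites and the exons. The red stems stand at ceh-36 (2), ttx-1 (3), unc-30 (1) and ceh-45 (2), and the ceh-37 window is nearly empty.

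The locus of ceh-36 itself (chrX:14183221-14186566, minus strand, WBGene00000457) held the strongest of these entries. Its summit at 14185480 ranked 161 with a signal of 295.1, and lay in a coding exon 1086 bp downstream of the gene start. It was strong in both replicates, at rank 118 with a signal of 150.0 in replicate 1 and rank 235 with a signal of 138.9 in replicate 2, and their summits stood 10 bp and 5 bp from the pooled one. This summit had no TAATCC within 100 bp. The closest copy was centred 284.5 bp away, and it belonged to a separate entry.

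That other optimal entry of ceh-36 had its summit at 14185735 in the intron before that exon, 831 bp downstream of the gene start, with a signal of 108.5 and rank 1047. One copy of the core, reading GGATTA on the gene strand, was centred 29.5 bp from the summit. Here the replicates were far apart. The replicate 1 entry with the closest summit ranked 408 with a signal of 84.5, and that of replicate 2 ranked 12727 with a signal of 24.0. The intron and exon entries overlap each other, so an overlap alone would also match the intron entry to the stronger exon entries.

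A further place at ceh-36 was strong in each replicate and is absent from the pooled and optimal lists. Just past the end of the gene, replicate 1 had a summit at 14183009 (rank 416, signal 83.9) and replicate 2 one at 14183035 (rank 159, signal 163.4), 212 bp and 186 bp beyond the annotated end. Both had 1 copy of TAATCC within 100 bp, at 85.5 bp and 59.5 bp, in the downstream sequence shown above. No pooled entry overlapped it. Among the 1165 of the 1662 strongest replicate 1 entries that overlapped one of the strongest of replicate 2, only 6 (0.515%) overlapped no pooled entry, and this was one of them. Why the pooled list lacks it was not tested.

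The other replicate entries of ceh-36 were less alike. Replicate 1 alone had a summit 877 bp upstream of the start (rank 964, signal 52.6), with 1 TAATTA and no TAATCC nearby, and another 26 bp upstream (rank 2663). Replicate 2 alone had one 2081 bp past the gene end (rank 4186), in a coding exon of the neighbouring gene C37E2.3. Both lists had a weak intronic entry, 2162 bp and 2175 bp into the gene (ranks 6913 and 11200), which no pooled entry overlapped. The window held 16 TAATCC sites, of which 1 lay at a pooled summit.

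In the pooled list no broad block of entries surrounded ceh-36, but this list lacked some of the replicate entries there. Of the 6 entries of replicate 1 and 5 of replicate 2 in the window, 4 and 3 overlapped no pooled entry. These counts were 1 and 0 at ttx-1, 3 and 1 at unc-30, and 0 and 0 at ceh-37 and at ceh-45. The share of all replicate entries that overlap no pooled entry is not given here. These counts therefore do not show that ceh-36 is unusual. The ceh-36 window had 1.09 pooled summits per 10 kb against 2.45 over the X chromosome, and 3.27 and 2.73 per 10 kb in replicates 1 and 2 against 2.52 and 2.58. From 10 to 30 kb upstream of the gene start, each of the 4 lists had 0 summits. In the first 20 kb downstream of the start, counted in 10 kb steps, the pooled list had 2 and 2, replicate 1 had 4 and 1, and replicate 2 had 7 and 7. The part of the transgene in any entry at ceh-36 was not tested.

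The neighbouring Otx gene ceh-37 (chrX:14197372-14208000, minus strand, WBGene00000458) is separated from ceh-36 by 10805 bp and lies on the same strand. Its window had 0 optimal entries and 1 pooled entry. The summit of that entry, at 14216876, lay 8876 bp upstream of the start in an intron of K06G5.1, with a signal of 46.7 and rank 8415. Replicate 1 had it at rank 5593 and replicate 2 did not have it. It held neither TAATCC nor TAATTA within 100 bp. The window contained 16 TAATCC sites, of which 0 lay at a pooled summit. It shares 4195 bp with the window of ceh-36, and 5 of these sites lie in both, while no listed summit does. Its density of pooled summits, 0.390 per 10 kb, was at or above that of 12.0% of the nuclear protein-coding genes, whose median was 2.57.

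The third Otx gene, ttx-1 (chrV:20053719-20064176, minus strand, WBGene00006652), had the most entries in the optimal list. Its window held 3 optimal summits, a number that 1.12% of protein-coding genes reached or passed, and 2 of them had the core, a number that 1.13% of genes reached or passed. Both shares are over genes with windows of any length. They were not taken among windows as long as that of ttx-1, 25458 bp. The strongest lay in the long intron after the first exon (summit 20061682, signal 143.4, rank 644), 2494 bp downstream of the gene start. It stood 262 bp upstream of the start of a shorter annotated transcript, Y113G7A.6d.1. The replicates agreed on its place, at rank 642 with a signal of 64.6 in replicate 1 and rank 685 with a signal of 78.7 in replicate 2. No TAATCC lay within 100 bp of this summit, and the closest was centred 126.5 bp away, still inside the entry. The summit of replicate 2 lay 37 bp from the pooled one, and that placed the same core within 100 bp, at 89.5 bp.

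Both other optimal entries of ttx-1 lay in the intergenic sequence upstream, with ttx-1 as the nearest protein-coding start. The summit at 20068856, 4680 bp upstream, had a signal of 98.5 and rank 1260, and its core, in the longer form CTAATCC, was centred 10.5 bp from it. It ranked 834 in replicate 1 with a signal of 56.4 and 2647 in replicate 2 with a signal of 42.2. The summit at 20073455, 9279 bp upstream, had a signal of 102.0 and rank 1173, with 2 cores in the same orientation and 44 bp apart, centred 12.5 bp and 56.5 bp from it. A further core, centred at -9.1305 kb from the gene start (upstream), lay inside this entry but more than 100 bp from its summit. The replicate order of this entry was the reverse, at rank 4327 in replicate 1 with a signal of 29.6 and rank 864 in replicate 2 with a signal of 70.0. Each of these 2 upstream entries was thus among the 1662 strongest in a different replicate and outside them in the other.

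Below the threshold, ttx-1 had 11 more pooled entries, of which 4 had TAATCC. The strongest, at 20065253, lay 1077 bp upstream of the start with a signal of 81.4 and rank 1930, a little beyond the last optimal entry. Replicate 1 had it at rank 2583 and replicate 2 at rank 1508, and its core was centred 76.5 bp from the pooled summit. The next, 8078 bp upstream at 20072254 (signal 70.8, rank 2720), had CTAATCC centred 8.5 bp away and 1 TAATTA. After it came an intron entry at 20057571 (signal 62.1, rank 3884), with 3 telomere units TTAGGC over the width of the entry and no TAATCC. The window held 5.50 pooled summits per 10 kb against 2.33 over chromosome V, a density that 11.4% of nuclear genes reached or passed. Of its 13 TAATCC sites 7 lay within 100 bp of a pooled summit.

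The Pitx gene unc-30 (chrIV:13118977-13124406, plus strand, WBGene00006766) had 1 optimal entry, placed at its start. The summit at 13119113 lay 136 bp downstream of the gene start in the annotated 5′ UTR, and 23 bp downstream of the start of the transcript B0564.10b.1. It had a signal of 150.4 and rank 590. In replicate 1 it ranked 985 with a signal of 52.2 and in replicate 2 it ranked 478 with a signal of 95.8, with summits 16 bp and 2 bp from the pooled one. The 2 cores within 100 bp of the summit both read TAATCC on the gene strand and stood 33 bp apart. They were centred 27.5 bp and 60.5 bp from the summit. A further core, centred at -0.0345 kb from the gene start (upstream), also lay inside the entry, but more than 100 bp from its summit.

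Elsewhere the unc-30 window had only weak entries. The 4 other pooled summits had signals from 31.4 to 42.1 and ranks from 11000 to 20896, and none had TAATCC. The strongest of them was intronic, 2531 bp from the start on its downstream side, at rank 3156 in replicate 1 and with no overlapping entry in replicate 2. After it came an intronic summit at 13122136 (rank 15615) and one in a coding exon at 13121798 (rank 20333). With 2.45 pooled summits per 10 kb, the window was level with chromosome IV as a whole (2.46). The replicates lay on opposite sides of the chromosome, with 3.43 against 2.53 in replicate 1 and 1.47 against 2.47 in replicate 2. It had 6 TAATCC sites, the fewest of the 5 windows. The 2 just downstream of the gene start were the ones within 100 bp of a pooled summit.

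The Goosecoid gene ceh-45 (chrI:1128324-1131765, plus strand, WBGene00022837) had 2 optimal entries, 1 on each side of its coding part. The summit at 1126879, 1445 bp upstream of the start, had a signal of 148.8 and rank 603. It lay in a stretch of telomere-type repeat, with 17 units of TTAGGC over the width of the entry, 9 copies of TAAGCC and 1 TAATCC within 100 bp. Over all optimal summits 34.4% had 3 or more such units. It ranked 404 in replicate 1 with a signal of 85.1 and 1100 in replicate 2 with a signal of 61.3.

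The downstream entry of ceh-45 had its summit at 1131772, 7 bp past the annotated end of the gene, with a signal of 113.9 and rank 967. It had 3 copies of TAATCC within 100 bp, the most of the 8 summits, and 0 telomere units. Neighbouring copies stood 53 bp and 41 bp apart, the first 2 in the same orientation and the last in the opposite one. Both replicates had it among their strongest, at rank 980 with a signal of 52.3 and rank 839 with a signal of 71.0.

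Of the 10 further pooled entries at ceh-45, 4 had TAATCC. The strongest of them, 475 bp past the gene end (summit 1132240, signal 65.2, rank 3411), had 2 copies of CTAATCC and ranked 2120 in replicate 1 and 7412 in replicate 2. The entries at 1133528 (rank 5594, 1 TAATCC) and 1131972 (rank 6304, no TAATCC) followed. The one at 1131972 overlaps the optimal entry at 1131772. Its closest replicate summits, 192 bp and 144 bp away, are those matched to that optimal entry. In the pooled list the window was the densest of the 5, with 6.51 summits per 10 kb against 3.79 over chromosome I. Of nuclear genes 5.24% reached or passed this density. Some of these pooled entries overlap each other. In replicate 1 the ttx-1 window was denser (5.11 against 4.34 at ceh-45), and in replicate 2 that of ceh-45 was (5.42 against 4.71). Of its 13 TAATCC sites 10 lay at a pooled summit.

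**Figure D2:**
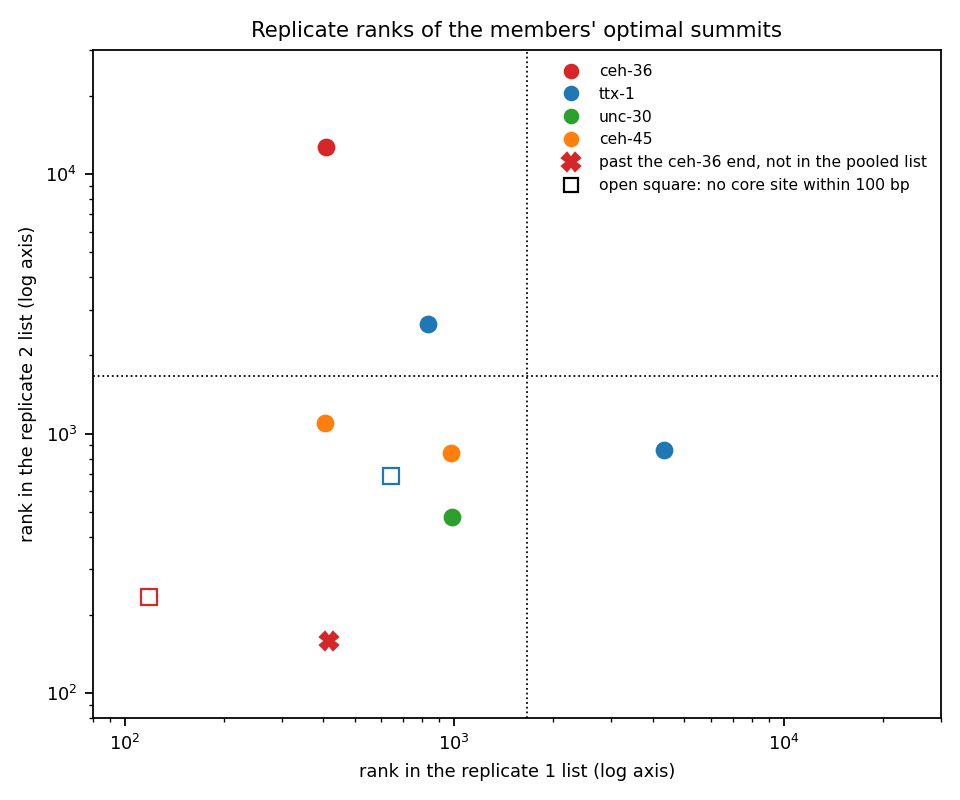
Rank of each optimal summit of the 5 genes in the replicate 1 list (x) and the replicate 2 list (y), both on log axes, each taken from the overlapping entry with the closest summit. Dotted lines mark rank 1662, open squares have no core site within 100 bp, and the cross is the entry past the end of ceh-36. The ceh-36 intron summit lies at 408 and 12727, far from the others.

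Of all pooled entries 58.0% overlapped an entry in both replicate lists by 1 bp or more. Such an overlap can be with the replicate entry of a neighbouring site. The unc-30 entry at 13121798, for one, had its closest replicate summits 290 bp and 223 bp away, in entries that adjacent pooled entries also overlap. By the same overlap rule, the counts among the members were 11 of 14 at ttx-1, 9 of 12 at ceh-45 and 2 of 5 at unc-30. They were 2 of 2 at ceh-36 and 0 of 1 at ceh-37, so the genes lay on both sides of that share. For optimal entries, the replicates placed the summits close together, with a median gap to the pooled summit of 9 bp in replicate 1 and 31.5 bp in replicate 2. When the replicate entry with the best rank among those overlapping was taken, 6 of the 8 were among the 1662 strongest of both replicates, against 69.1% of all optimal entries. When summits had to lie within 100 bp of each other the number was 5, against 64.5%, because the ceh-36 intron entry dropped out. The optimal list was thresholded on these same replicates, so this is no independent support. Near the gene start the lists differed. With the strongest entries of either replicate alone, 3 members had a summit in the start window. These were ceh-36, unc-30 and ceh-45 in replicate 1, where 3.99% of all genes had one, and ttx-1, unc-30 and ceh-45 in replicate 2, where 4.11% did.

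Over the 5 windows together, with each site in the overlap of ceh-36 and ceh-37 counted 1 time, 10 of 59 TAATCC sites (16.9%) lay within 100 bp of an optimal summit and 20 (33.9%) of a pooled one. Over the nuclear genome these shares were 2.84% and 18.8% of 36668 sites. They were uneven among the genes, from 0 of 16 at ceh-37 to 10 of 13 at ceh-45 for pooled summits. Since 88.1% of protein-coding genes had a pooled entry in such a window, presence in the pooled list is not particular to these genes.

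**Figure D3:**
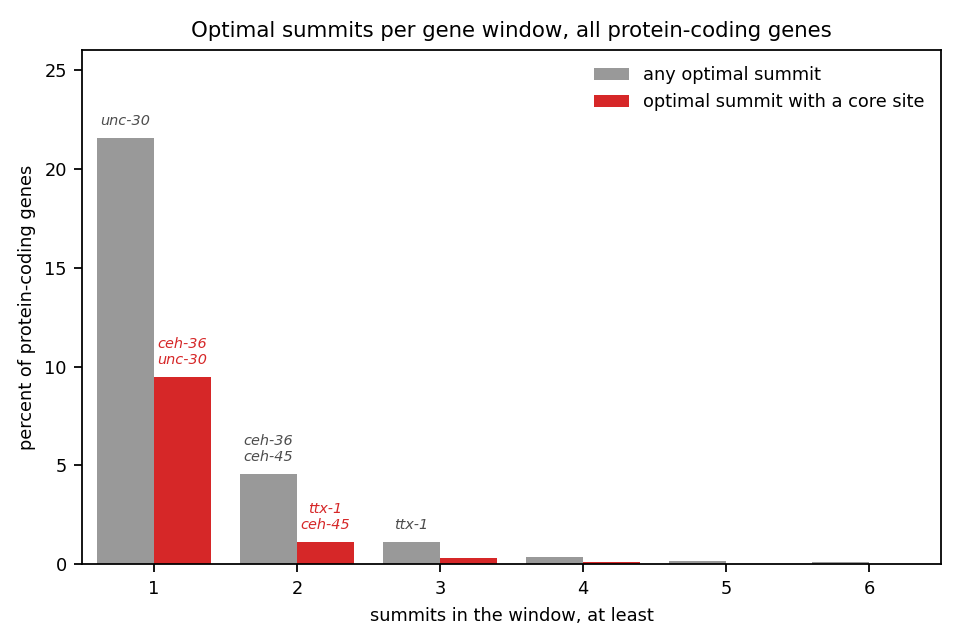
Percent of all protein-coding genes (y) with at least the number of optimal summits on the x axis in the window, for any optimal summit (grey) and for summits with a core site within 100 bp (red). Members are written above the bar of their own count. At least 2 core summits, as at ttx-1 and ceh-45, were found in 1.13% of genes.

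The genes most like the members were those with at least as many optimal TAATCC summits as ttx-1 and ceh-45, which had 2 each. There were 224 others, 12 of them mitochondrial. By the rule used, the first 5 were all mitochondrial genes, with from 24 to 26 optimal summits in each window. The first nuclear ones, named after their values were seen, were egl-27, a chromatin regulator gene, lido-7, nhr-88, which encodes a nuclear hormone receptor, Y60A3A.23 and Y60A3A.25, each with 4. Neighbours among these share their summits.

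Of 9 other paired-like homeobox genes, which carry related homeodomains, 3 had an optimal summit in the window (ceh-8, ceh-53 and dsc-1) and 1, dsc-1, had one with TAATCC. Over all protein-coding genes these shares were 21.6% and 9.49%, so the count with TAATCC was near the background. The median over this list was 0 optimal summits a gene, as over all protein-coding genes. At dsc-1 a summit lay 176 bp upstream of the start with 2 cores (chrX:15034813-15035202, signal 185.9, rank 410), and a weaker one 6722 bp upstream with 1 core (signal 87.6, rank 1643), which had C18B12.4 as its nearest start. The summit in the ceh-8 window (signal 880.1, rank 22) stood 8613 bp upstream of the start and had sre-23 as its nearest start. That of ceh-53 (signal 114.8, rank 956) lay in an intron of the gene, had srz-83 as its nearest start and had no TAATCC.

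Genes that work in the neurons named above were also looked up. Of 4 genes of the GABA neuron, which UNC-30 is known to regulate in part, 2 had an optimal summit (unc-25 and snf-11, a median of 0.5 summits a gene) and 1 had one with TAATCC, against 21.6% and 9.49% of all protein-coding genes. That one was unc-25, which encodes the enzyme that makes GABA, with summits in introns 2523 bp and 1860 bp downstream of the start (signals 279.8 and 180.2, ranks 182 and 438). Both had TAATCC, in windows with 14 and 11 telomere units. The entry near the GABA transporter gene snf-11 (signal 872.4, rank 23) lay 5765 bp upstream of it, in an intron of cutl-18, and had no core. The GABA genes unc-46 and unc-47 had 0. So did the 3 guanylyl cyclase receptor genes of the AFD neuron (gcy-8, gcy-18 and gcy-23), where TTX-1 is required, and the 4 AWC signalling genes odr-1, odr-3, tax-2 and tax-4. With 21.6% of all protein-coding genes having a summit, 0 in lists this short does not show that such genes are not bound. Only embryos taken 2 hours after synchronization were examined.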

How the data were processed

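ChIP-seq of tagged CEH-36 was analysed from peak lists of 2 biological replicates. Per the file descriptions deposited by the authors, alignments and a control gave the replicate and pooled lists, and IDR on those lists gave the optimal one. The sources used here name no aligner, peak caller or version. The deposited lists hold a signal value per entry in column 7, −log10 of a q-value in column 9 and the distance of the summit from the entry start in column 10. Lists on ce10 were not used. The reference was WBcel235, the same assembly as ce11, annotated by Ensembl release 115, and 0 entries passed the end of a chromosome.

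Entries were ranked by signal (ties share the lower rank), assigned to genes by strand-aware windows, and matched between lists by an overlap of 1 bp or more. Printed replicate values are from the overlapping entry with the closest summit. Motif counts cover both strands and the 100 bp on each side of a summit, and TTAGGC units within 195 bp. TAATCC is contained in CTAATCC. Window, rank and motif code was tested on simulated data in Python 3.11.15 with pandas 2.3.3. No significance test was made, since there is 1 group. The members and gene lists were chosen with earlier results of these data known. All 5 members were named, with every optimal entry, up to 3 of the strongest other pooled entries each, list members with an optimal summit and up to 5 genes with at least as many core summits. The replicates are separate samples per the labels, which do not say whether they came from separate cultures.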

Additional observations from a re-analysis of the deposited data

How the results depend on the processing

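Of 33 alternative values, 27 stayed within 1.5 times of the reported count. A count of 4 among 5 members can rise only to 5, so it could leave this band only by falling. The tally does not take the share over all genes into account. The count of 4 members with an optimal TAATCC summit was also 4 with a window of 5 kb upstream and 2 kb past the end (5.76% of all genes), with nearest starts only (2.99%), with the strongest entries of replicate 1 (9.35%) or replicate 2 (9.19%) alone, with the core within 50 bp (7.49%) or 200 bp (10.7%) and without telomere-repeat windows (5.57%). It was 4 with all pooled entries too, where 56.4% of all genes had one. It fell to 2 with the strongest 831 optimal entries (4.54% of all genes) and to 2 with CTAATCC in place of TAATCC (5.96%). The 8 optimal summits became 4 in the strongest 831 entries and 34 with all pooled entries. Replicate lists alone gave from 8 to 9 summits. Without ceh-36, an alternative chosen after seeing the data, 3 of the other 4 members had an optimal summit, and 3 had one with TAATCC. Members with a summit at the start went from 2 to 1 within 500 bp on each side (2.44% of all genes). The 6 summits strong in both replicates became 3 with the strongest 831 entries of each list. Beyond what each setting's own construction removes or adds, the cause was not tested. No paired analysis was possible because there is 1 group. Depth is unknown, so the absence of an entry, as at ceh-37, says only that none was listed.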
